A study of Mus musculus with 24 samples.

Results

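The 12 villus arrays of a 24-array mouse series were read as a 2 by 2 design that crosses loss of Rb with loss of E2f1, E2f2 and E2f3. Villi are the folds of the small intestine, covered mostly by absorptive cells that no longer divide. Each of 4 genotypes had 3 arrays: wild type (WT), mice without Rb (Rb), mice without the 3 E2f genes (TKO) and mice without all 4 genes (QKO). All mice were of a mixed C57BL/6;FVB background and 2 months old, and all had received beta-naphthoflavone into the peritoneum 7 days before the tissue was taken. Beta-naphthoflavone is a ligand of the aryl hydrocarbon receptor and is used to switch on Cre transgenes driven by a responsive promoter. Which Cre was used, which alleles were conditional and what share of villus cells had lost them is not given in the labels. Each of 18193 genes was read through 1 probe set. Of these, 385 were on 5 lists of cell cycle, replication, repair, E2f pathway and histone genes and were set apart, which left 17808 genes outside the cell cycle lists. The lists need not be complete, so genes outside them can still include genes tied to the cell cycle.

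Rb, encoded by Rb1, is a pocket protein that binds E2f transcription factors and holds them inactive in cells that leave the cycle. E2f1, E2f2 and E2f3 are usually called activators, since they can raise genes of DNA replication and division. E2f4, E2f5 and E2f6 are mostly known as repressors, and E2f7 and E2f8 are atypical members that are themselves raised by E2f activity. The question of this design is which changes that follow Rb loss in villi are still seen where E2f1 to E2f3 are also lost.

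Values are log2 expression as deposited, and a difference of 1 is a 2-fold change. Rb minus WT is the effect of Rb loss with E2f1 to E2f3 present, and QKO minus TKO is the effect of Rb loss without them. The interaction is the second minus the first. Calls were made by limma at an adjusted p under 0.05 over all 18193 genes with 1 mean per group over the 12 arrays. Errors after ± are SE from that fit, and per-array values are given in the order of arrays 1, 2 and 3. Whether each array stands for its own animal is not given in the labels, so p-values measure the spread between these arrays. In such tissue RNA, fewer cells of a type and less RNA per cell cannot be told apart.

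Rb1 checked the labels. Its brighter probe set read 10.70, 10.93 and 10.74 in WT, 8.84, 9.36 and 9.19 in Rb, 10.38, 10.32 and 10.37 in TKO and 8.28, 8.57 and 8.77 in QKO. All 6 arrays without Rb lay below all 6 with it. Rb1 fell by 1.66 ± 0.15 in Rb minus WT (adjusted p = 1.4e-05) and by 1.82 ± 0.15 in QKO minus TKO (adjusted p = 7.6e-05), with no call for its interaction (-0.16 ± 0.21, adjusted p = 0.68). Probe sets for E2f1, E2f2 and E2f3 do not check the TKO label, since the deleted parts are not given. E2f2 read 8.93, 8.88 and 8.88 in Rb, against 7.24 to 8.10 in WT, 7.74 to 8.08 in TKO and 7.12 to 7.45 in QKO.

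Of 10 enterocyte markers 9 were measured, and no interaction of these was called. Vil1, Lct, Anpep, Fabp1, Fabp2, Apoa1, Apoa4 and Slc5a1 read at least 13.03 on all 12 arrays, on a scale that ends at 14.9, and the interaction of the ninth, Alpi, was 0.30 ± 0.17 (adjusted p = 0.29). Lct was lower in Rb than WT (-0.43, adjusted p = 0.048). Some technical measures moved with the groups. Bacterial control RNA added before labelling read 5.35 to 6.25 on the WT and Rb arrays and 8.96 to 10.06 on the TKO and QKO arrays, so this difference and that between E2f genotypes cannot be told apart, whereas Rb minus WT and QKO minus TKO each lie within one side of the split. Within the second side it also moved with Rb, at 8.96 to 9.15 in TKO and 9.64 to 10.06 in QKO, and its part in QKO minus TKO was not tested. By Y-linked transcripts and Xist, WT held 0 male arrays, Rb 2, TKO 2 and QKO 3, so Rb loss went with more male arrays in both comparisons. QKO array 3 had a median of 5.26, above the 5.01 to 5.08 of the other 11 arrays.

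Rb loss had a different effect on a large set of villus genes once E2f1 to E2f3 were gone. The interaction was called for 2704 genes (14.9% of those tested), of which 1505 were higher (8.27%) and 1199 lower (6.59%). With E2f1 to E2f3 present, Rb loss was called for 2622 genes (14.4%), 1547 higher (8.5%) and 1075 lower (5.91%). Without them it was called for 1018 genes (5.6%), 843 higher (4.63%) and 175 lower (0.962%). These splits depended on scaling: with arrays centred on their medians the higher share was 46.3% of interaction calls, against 55.7%, and 51.8% of QKO minus TKO calls, against 82.8%. The median over all genes was -0.08 in Rb minus WT, 0.04 in QKO minus TKO and 0.12 in the interaction, and centring moved it to -0.12, -0.07 and 0.04.

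Genes were sorted by these calls. A change was counted as lost or reversed where Rb minus WT was called, the interaction was called against it and QKO minus TKO was not called in its direction. This class held 993 genes that were higher in Rb than WT (5.46%) and 666 that were lower (3.66%), of which 718 and 661 lay outside the cell cycle lists. A change was counted as kept where both Rb contrasts were called the same way and the interaction was not. This class held 50 higher (0.275%) and 16 lower genes (0.0879%). A change was counted as gained where Rb loss was called only without E2f1 to E2f3 and the interaction was called the same way, which gave 476 higher (2.62%) and 50 lower genes (0.275%). These 526 numbered 187 without TKO array 2, 330 without QKO array 3 and 981 without QKO array 1, and 291 with arrays centred on their medians and QKO array 3 left out. A further 503 higher (2.76%) and 391 lower genes (2.15%) changed in Rb minus WT with neither other call and were undecided. The classes sort calls, and they do not show that an E2f acts on the gene itself.

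**Figure D1:**
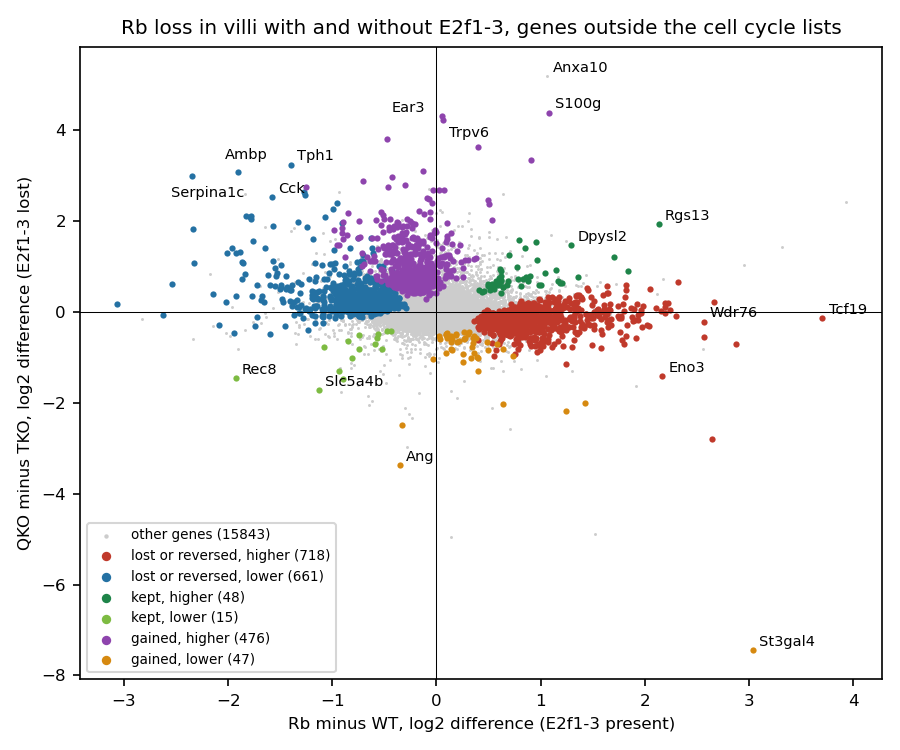
Log2 difference of Rb minus WT (x axis) against QKO minus TKO (y axis) for the 17808 genes outside the cell cycle lists, 1 dot per gene, coloured by class. The 718 red and 661 blue genes lie along the horizontal axis or in the opposite quadrant, the 476 purple genes rise along the vertical axis, and the 48 and 15 green genes lie near the diagonal.

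A gene picked for a call in Rb minus WT tends to have an interaction against it, since both use the same arrays. QKO and TKO arrays are separate from those, so QKO minus TKO gives the independent reading. Of the 1248 genes outside the cell cycle lists that were higher in Rb than WT, 49 were also called higher in QKO than TKO (3.93%), below the 4.63% of all genes, and 31 were called lower (2.48%, against 0.962%). Of the 1067 that were lower, 17 were called lower in QKO than TKO (1.59%, against 0.962% of all genes) and 99 were called higher (9.28%, against 4.63%). The median QKO minus TKO was -0.02 over the former and 0.12 over the latter, beside 0.04 over all genes. The share called the same way was thus near the background for rises and above it for falls, where it rests on 17 genes. On the cell cycle lists, 299 of 385 genes were higher in Rb than WT, and 2 of these 299 were called higher in QKO than TKO and 21 lower.

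The genes with the largest interactions among those raised by Rb loss were, with exceptions given below, near their TKO level in QKO. Tcf19, a nuclear protein known as a growth-regulated gene, read 7.07, 6.94 and 7.13 in WT, 10.95, 10.66 and 10.65 in Rb, 7.95, 7.93 and 7.40 in TKO and 7.70, 7.63 and 7.58 in QKO. The 3 Rb arrays lay above all others, at 13.1-fold over WT (3.71 ± 0.15, adjusted p = 6.4e-08), against -0.13 ± 0.15 in QKO minus TKO (adjusted p = 0.69) and an interaction of -3.83 ± 0.22 (adjusted p = 3.8e-06). Wdr76, a chromatin-associated WD repeat protein, read 5.54, 5.44 and 5.21 in WT, 7.92, 7.93 and 8.04 in Rb, 6.20, 6.34 and 6.22 in TKO and 6.12, 5.87 and 6.15 in QKO, with an interaction of -2.77 ± 0.18 (adjusted p = 4.9e-06). Its TKO and QKO arrays lay between those of WT and Rb, with QKO just below TKO. Plp2, a membrane protein, rose by 2.57 ± 0.30 in Rb minus WT and was -0.54 ± 0.30 in QKO minus TKO (adjusted p = 0.34).

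Eno3, the muscle-type enolase of glycolysis, changed in opposite directions. It read 8.46, 8.32 and 8.51 in WT, 10.85, 10.45 and 10.50 in Rb, 9.13, 8.73 and 9.19 in TKO and 7.49, 7.17 and 8.17 in QKO. The groups did not overlap in either contrast, and Eno3 rose by 2.17 ± 0.22 in Rb minus WT (adjusted p = 3.3e-05) and fell by 1.41 ± 0.22 in QKO minus TKO (adjusted p = 0.0042). Gsdmc2, a gasdermin, had the largest interaction among the genes of this class (-5.44 ± 1.09, adjusted p = 0.0055) but a wide spread, at 5.06 to 6.94 in WT, 8.48 to 9.03 in Rb, 5.85 to 9.55 in TKO and 4.18 to 5.96 in QKO. Gt(ROSA)26Sor, a transcript of a locus used for reporter alleles, read 2.85, 2.91 and 3.32 in WT but 4.36, 4.84 and 8.51 in Rb, 8.18 to 8.61 in TKO and 7.12 to 8.08 in QKO. Rb array 3 stood with the TKO arrays there, and the interaction of -3.57 ± 1.09 lost its call in 13 of 23 other settings.

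Among the E2f genes, E2f7 read 5.71 to 5.99 in WT, 8.76 to 9.12 in Rb, 5.66 to 5.70 in TKO and 5.01 to 5.70 in QKO, with an interaction of -3.49 ± 0.24. E2f8 read 6.30 to 6.81 in WT, 9.37 to 9.83 in Rb, 8.01 to 8.46 in TKO and 7.26 to 8.17 in QKO, with an interaction of -3.62 ± 0.32. E2f5 rose by 1.09 ± 0.14 in Rb minus WT and was -0.05 ± 0.14 in QKO minus TKO. E2f6 rose by 0.78 ± 0.12 in Rb minus WT and, unlike these, also by 0.47 ± 0.12 in QKO minus TKO, and its interaction of -0.31 ± 0.18 was not called.

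Promoters of the classes were read for the E2f motif, spelled as TTTCCCGC, TTTCGCGC, TTTGCCGC or TTTGGCGC and searched on both strands, with only 1 spelling able to match at a given place on a strand. Windows of 300 bases, from 250 before to 50 after a start, came from RefSeq (GRCm38.p6) and were matched by symbol to 14452 of the 18193 genes. A motif was present for 3.81% of all 14452 genes and for 21% of 319 cell cycle genes. Outside the cell cycle lists it was present for 61 of 588 genes whose rise was lost or reversed (10.4%), 30 of 404 undecided rises (7.43%), 19 of 557 lost or reversed falls (3.41%), 10 of 366 gained rises (2.73%) and 0 of 43 kept rises. These shares are descriptions, and a match is not a binding site. The 6 windows below belong to the named genes with a lost rise that held a motif. Most named genes of this kind with a window held none, among them Tcf19, Eno3, Wdr76, Dek, Mthfd2, Lsm8, Snrpd3, Nup160 and Pes1. The 6 windows show how close the match lay to the start, and the match is in capitals.
Cdca7, chr2:72475969-72476268, plus strand: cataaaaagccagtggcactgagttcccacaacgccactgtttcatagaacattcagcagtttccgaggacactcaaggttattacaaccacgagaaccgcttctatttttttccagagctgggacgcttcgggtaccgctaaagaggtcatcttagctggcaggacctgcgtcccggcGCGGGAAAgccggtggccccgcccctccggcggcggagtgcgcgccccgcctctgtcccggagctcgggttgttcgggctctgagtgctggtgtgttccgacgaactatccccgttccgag
Ezh2, chr6:47594981-47595280, minus strand: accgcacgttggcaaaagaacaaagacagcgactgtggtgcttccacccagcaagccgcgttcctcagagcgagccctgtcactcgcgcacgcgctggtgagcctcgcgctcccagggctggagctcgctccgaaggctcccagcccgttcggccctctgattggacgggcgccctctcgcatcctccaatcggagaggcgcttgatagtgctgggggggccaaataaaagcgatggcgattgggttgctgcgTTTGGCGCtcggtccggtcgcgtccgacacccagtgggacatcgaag
Rad51c, chr11:87404457-87404756, minus strand: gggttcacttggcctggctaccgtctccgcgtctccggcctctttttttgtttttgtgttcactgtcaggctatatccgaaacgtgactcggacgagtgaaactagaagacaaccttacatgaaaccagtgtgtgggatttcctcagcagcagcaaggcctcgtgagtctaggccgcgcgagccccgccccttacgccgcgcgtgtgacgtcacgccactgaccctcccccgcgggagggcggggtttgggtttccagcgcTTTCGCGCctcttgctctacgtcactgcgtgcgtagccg
Rad51c, chr11:87404905-87405204, minus strand: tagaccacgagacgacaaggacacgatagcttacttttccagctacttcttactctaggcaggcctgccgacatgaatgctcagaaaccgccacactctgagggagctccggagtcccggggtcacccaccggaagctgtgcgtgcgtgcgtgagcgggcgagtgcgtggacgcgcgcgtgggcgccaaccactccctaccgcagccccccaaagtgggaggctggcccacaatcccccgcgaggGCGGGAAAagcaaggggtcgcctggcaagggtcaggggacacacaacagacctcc
Syce2, chr8:84872008-84872307, plus strand: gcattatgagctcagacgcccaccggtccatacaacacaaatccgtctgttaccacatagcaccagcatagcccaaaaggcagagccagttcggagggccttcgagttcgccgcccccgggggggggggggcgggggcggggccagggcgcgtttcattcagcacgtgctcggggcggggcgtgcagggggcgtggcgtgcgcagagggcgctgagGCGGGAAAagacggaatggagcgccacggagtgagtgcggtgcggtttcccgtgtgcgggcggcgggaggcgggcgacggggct
Ift27, chr15:78174032-78174331, minus strand: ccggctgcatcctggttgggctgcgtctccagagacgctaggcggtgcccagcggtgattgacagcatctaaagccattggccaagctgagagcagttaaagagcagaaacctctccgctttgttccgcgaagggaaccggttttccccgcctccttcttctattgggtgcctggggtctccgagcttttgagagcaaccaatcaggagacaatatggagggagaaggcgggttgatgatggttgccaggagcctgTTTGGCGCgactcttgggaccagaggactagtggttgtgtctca
The match starts 71 bases before the start in Cdca7 and 34 before it in Syce2, at base 4 after it in Ezh2 and at base 7 in Ift27. The windows of Rad51c hold it at base 12 after the first listed start and 5 bases before the second. Of these genes Ezh2, Cdca7 and Rad51c are also on the cell cycle lists, and Syce2, a synaptonemal complex protein, and Ift27, a Rab-like protein of cilia, are not.

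Ift27 read 6.16, 5.96 and 6.25 in WT, 7.72, 7.74 and 7.90 in Rb, 6.92, 7.19 and 6.81 in TKO and 7.25, 6.53 and 7.30 in QKO. Only in Rb did all arrays exceed 7.7, and the interaction was -1.60 ± 0.27 (adjusted p = 0.0019). Syce2 rose by 1.19 ± 0.22 in Rb minus WT and was 0.07 ± 0.22 in QKO minus TKO, and its interaction of -1.12 ± 0.32 (adjusted p = 0.032) was lost in 7 of 23 other settings. Ezh2, the methyltransferase of Polycomb complex PRC2, rose by 1.67 ± 0.13 in Rb minus WT and was -0.23 ± 0.13 in QKO minus TKO (interaction -1.90 ± 0.18).

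RNA splicing and processing was the list with the largest share of lost rises outside the cell cycle. Of 53 measured genes 40 were higher in Rb than WT and 39 had a lower interaction, with a median interaction of -0.91 against 0.12 over all genes, and 35 were classed as lost or reversed. In QKO minus TKO no member was called higher by limma (1 at an unadjusted p under 0.05) and 5 were lower. The latter count was 11 with arrays centred on their medians, and 0 (without TKO array 2) to 8 (without QKO array 1) with 1 array left out. The mean level of the list was 8.99 to 9.11 in WT, 9.65 to 9.77 in Rb, 9.47 to 9.74 in TKO and 9.33 to 9.44 in QKO. Lsm8, a subunit of the ring that binds U6 snRNA, read 9.15, 9.21 and 9.21 in WT, 10.53, 10.43 and 10.44 in Rb, 9.73, 9.39 and 9.51 in TKO and 9.65, 9.58 and 9.61 in QKO. The Rb arrays stood alone, and the interaction was -1.21 ± 0.15 (adjusted p = 0.00023). Snrpd3, a core protein of spliceosomal snRNPs, rose by 0.89 ± 0.13 in Rb minus WT and fell by 0.65 ± 0.13 in QKO minus TKO (adjusted p = 0.017). The nuclear pore genes Nup160 and Nup85 had interactions of -1.62 ± 0.19 and -1.92 ± 0.24.

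Of 48 chromatin regulators 23 were higher in Rb than WT and 2 lower, and 16 had a lower interaction and 1 a higher one. Dek, a chromatin protein that introduces supercoils into DNA, read 10.03, 10.32 and 10.09 in WT, 12.51, 12.25 and 12.33 in Rb, 11.08, 10.93 and 10.81 in TKO and 11.17, 11.18 and 11.09 in QKO. It rose by 2.22 ± 0.12 in Rb minus WT, with 0.21 ± 0.12 in QKO minus TKO (adjusted p = 0.33), and its interaction was -2.01 ± 0.16 (adjusted p = 1.3e-05). Cbx5, which encodes heterochromatin protein HP1 alpha, and Nsd2, a histone H3 lysine methyltransferase, had interactions of -1.83 ± 0.23 and -1.64 ± 0.23.

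Lists of biosynthesis were called lower in the interaction as well. Of 35 tRNA synthetase and amino acid synthesis genes, 13 were higher in Rb than WT and 16 had a lower interaction (9 without Rb array 3, and 10 without WT array 2 or 3, Rb array 2 or TKO array 2). In the opposite direction 1 was lower in Rb than WT and 2 had a higher interaction. Mthfd2, a mitochondrial enzyme of folate-linked one-carbon metabolism, read 7.29, 7.03 and 6.89 in WT, 9.02, 8.91 and 9.17 in Rb, 7.53, 8.05 and 7.60 in TKO and 7.57, 7.69 and 7.88 in QKO (interaction -1.98 ± 0.23, adjusted p = 0.00014). The Rb arrays lay above all others, and TKO and QKO overlapped. The tRNA synthetases Cars, Aars and Yars had interactions of -1.77 ± 0.21, -1.34 ± 0.22 and -1.13 ± 0.19. Of 39 genes of the unfolded protein and heat shock responses, 11 were higher in Rb than WT (5 without WT array 3 or Rb array 2, 6 without Rb array 3, 7 without WT array 2 or Rb array 1) and 13 had a lower interaction (8 without WT array 3, 7 without TKO array 2), led by the chaperone gene Hsp90aa1, which rose by 1.48 ± 0.14 in Rb minus WT and was -0.07 ± 0.14 in QKO minus TKO. Hspb1, a small heat shock protein gene of the same list, went against it, with 1.75 ± 0.17 in QKO minus TKO and an interaction of 2.08 ± 0.23.

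Of 59 ribosome biogenesis genes, 22 were higher in Rb than WT and 26 had a lower interaction (median -0.65). The first count was 12 without WT array 3, 14 without Rb array 2 and 10 without Rb array 3, and the second was 16 without Rb array 3 and 17 without TKO array 2. By limma no member was called in QKO minus TKO in either direction, with 1 higher and 15 lower at an unadjusted p under 0.05. In TKO minus WT 46 were called higher, but the split in control RNA runs along that comparison and cannot be told apart from genotype. Over all genes 9.75% were called in TKO minus WT, 6.32% higher and 3.43% lower, a comparison that shares the WT arrays with Rb minus WT. Pes1, a factor of large subunit assembly, read 7.20, 7.42 and 7.05 in WT, 7.82, 8.09 and 8.06 in Rb, 8.66, 8.62 and 8.22 in TKO and 7.95 to 8.28 in QKO. The mean was highest in TKO, and the QKO arrays overlapped the Rb arrays. Dkc1 and Gar1, of the complex that makes pseudouridine in RNA, also had their highest mean in TKO, at 8.67 to 9.10 and 8.67 to 9.50 on its arrays, which overlapped the 8.24 to 8.68 and 8.81 to 8.99 in Rb. Of 25 purine and pyrimidine synthesis genes 11 were higher in Rb than WT (7 without WT array 2 or 3 or Rb array 2 or 3) and 6 had a lower interaction. Against these, 1 was lower in Rb than WT and 1 had a higher interaction. Paics, an enzyme of purine synthesis, read 8.02 to 8.13 in WT, 9.32 to 9.51 in Rb, 8.86 to 9.66 in TKO and 9.18 to 9.57 in QKO.

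A high level in TKO was common in the class. Of the 718 genes outside the cell cycle lists whose rise was lost or reversed, 372 were also called higher in TKO than WT (6.32% of all genes). In QKO minus WT 274 were called higher and 10 lower (11.1% and 4.78% of all genes). The sorting itself favours genes that are high in TKO or low in WT, since both groups enter the interaction. TKO minus WT also runs along the split in control RNA, so the 372 are a description of the class only. Over all 718 genes the median level was 7.50 in WT, 8.44 in Rb, 8.08 in TKO and 7.90 in QKO. The class thus includes genes that read high on the TKO arrays, for which QKO minus TKO showed no further rise by the test. E2f7 and Rad51c, which are in the class but on the cell cycle lists, are examples near WT in TKO. Their TKO minus WT was -0.15 ± 0.17 and 0.002 ± 0.13. Paics and Dkc1 are examples well above WT, with 1.27 ± 0.18 and 1.52 ± 0.18.

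**Figure D2:**
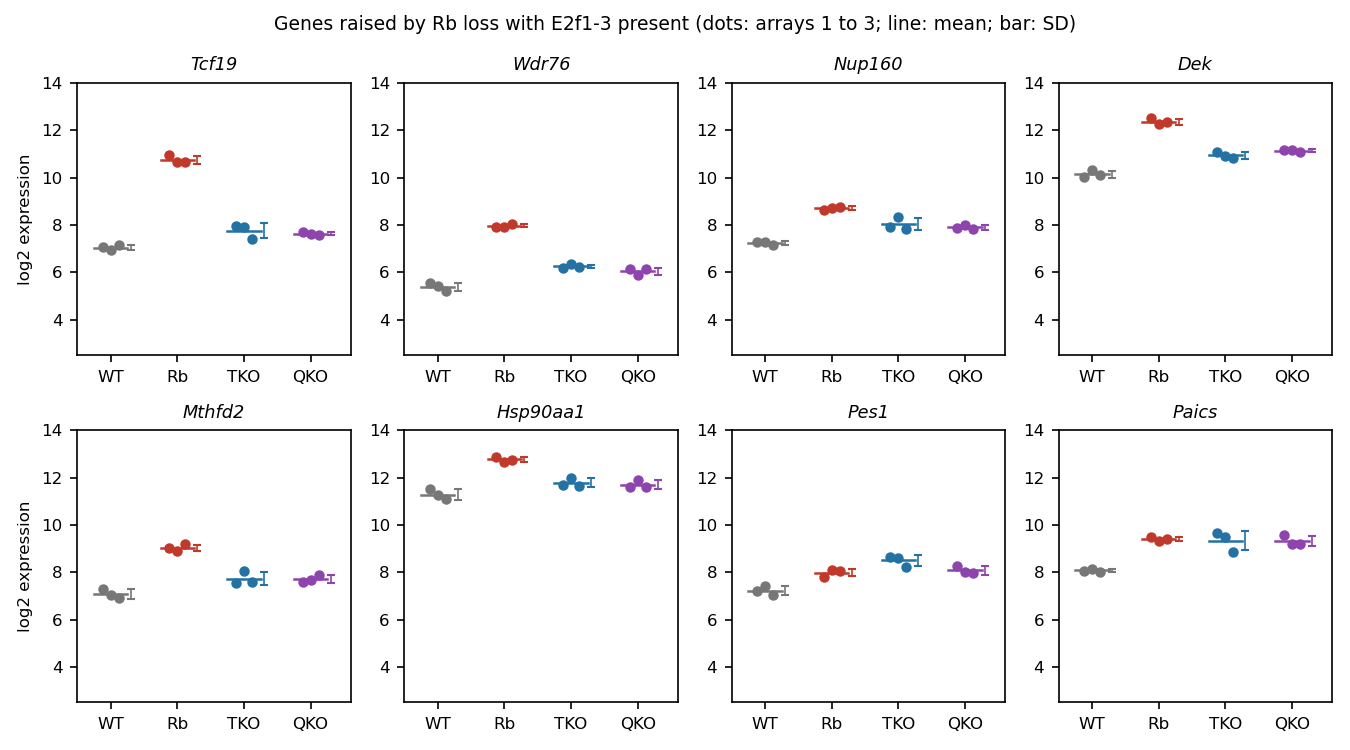
Log2 expression (y axis) of 8 genes on the villus arrays of each genotype (x axis), as dots with the mean as a line and the SD as a bar. Tcf19, Wdr76, Nup160, Dek, Mthfd2 and Hsp90aa1 are highest in Rb, whereas Pes1 is highest in TKO and Paics is about as high in TKO and QKO as in Rb.

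Lists of absorption and metabolism differed in how many falls were lost or reversed, against 3.66% of all genes. The class held 9 of 45 conjugation, 7 of 32 fatty acid oxidation, 6 of 38 cytochrome P450 and 5 of 16 sugar genes. It held 2 of 29 fat absorption, 2 of 32 brush border, 1 of 25 peptide digestion, 1 of 61 oxidative phosphorylation and 0 of 20 cholesterol synthesis genes. Outside the cell cycle lists 661 falls were lost or reversed. Of these, 202 were also called lower in TKO than WT and 5 higher (3.43% and 6.32% of all genes). In QKO minus WT 73 were called lower and 49 higher (4.78% and 11.1%). The sorting favours falls that are low in TKO or high in WT, and TKO minus WT runs along the split in control RNA. Of 45 conjugation enzymes and drug transporters 11 were lower in Rb than WT (5 without WT array 3, Rb array 2 or Rb array 3, 6 without WT array 2, 7 without WT array 1) and 9 had a higher interaction (4 without Rb array 3, 5 without WT array 2 or 3, Rb array 2 or TKO array 2, and 14 without TKO array 1), with a median interaction of 0.73. Abcc2, an apical export pump for conjugates, read 10.56, 11.08 and 10.72 in WT, 9.28, 9.46 and 9.31 in Rb, 10.57, 10.66 and 9.63 in TKO and 10.91, 10.72 and 10.91 in QKO. The Rb arrays were lowest, and the interaction was 1.99 ± 0.32 (adjusted p = 0.0015). Over the 45 genes the mean level was 10.42 in WT, 9.88 in Rb, 9.84 in TKO and 9.97 in QKO. In TKO minus WT 8 were called lower and 1 higher, and in QKO minus WT 8 lower and 2 higher. Of 38 cytochrome P450 genes 7 were lower in Rb than WT. The interaction was called lower for 1 and higher for 13, among them Cyp2d26 (1.30 ± 0.20) and Cyp4v3 (0.77 ± 0.13). Their mean level over the 38 was 8.43 in WT, 8.04 in Rb, 7.88 in TKO and 8.20 in QKO. In TKO minus WT 12 were called lower and 0 higher, and in QKO minus WT 9 lower and 3 higher. Of 16 sugar digestion and transport genes 7 were lower in Rb than WT (3 without WT array 3 or Rb array 2, 4 without WT array 2 or Rb array 3) and 7 had a higher interaction. Another 2 were higher in Rb than WT, of which 1 was kept. Slc37a4, the glucose 6-phosphate carrier of the endoplasmic reticulum, fell by 1.14 ± 0.17 in Rb minus WT and was 0.30 ± 0.17 in QKO minus TKO (interaction 1.43 ± 0.23).

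Of 32 genes of fatty acid oxidation and ketogenesis 10 were lower in Rb than WT (6 without WT array 3, Rb array 2 or Rb array 3) and 7 had a higher interaction (4 without Rb array 3). By limma none was called in QKO minus TKO in either direction, with 1 higher and 2 lower at an unadjusted p under 0.05. Acaa1b, a peroxisomal thiolase, read 11.49, 11.03 and 11.44 in WT, 8.88, 9.06 and 8.40 in Rb, 10.67, 9.11 and 11.24 in TKO and 12.05, 10.77 and 10.05 in QKO (interaction 3.16 ± 0.73, adjusted p = 0.012). TKO and QKO overlapped and the Rb arrays lay below both. Crat, a carnitine acetyltransferase, and Cpt2, the inner carnitine palmitoyltransferase of mitochondria, had interactions of 1.25 ± 0.19 and 0.76 ± 0.16. Ace, a peptidase of the brush border, fell by 1.72 ± 0.20 in Rb minus WT and was -0.11 ± 0.20 in QKO minus TKO.

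With sex as a covariate the falls in Rb minus WT were fewer, at 4 of 45 for conjugation and 5 of 32 for fatty acid oxidation. No WT array was male.

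Enteroendocrine genes were called lower in Rb minus WT and higher in QKO minus TKO, and 14 of 38 were called in both. Enteroendocrine cells are rare hormone-secreting cells of the epithelium. Of 38 measured hormone and granule genes 18 were lower in Rb than WT, 22 were higher in QKO than TKO and 26 had a higher interaction, with no call in the opposite direction by limma in these 3 contrasts and none at an unadjusted p under 0.05. The medians were -0.72 in Rb minus WT, 1.12 in QKO minus TKO and 1.93 in the interaction, against -0.08, 0.04 and 0.12 over all genes. Of 151 genes called in opposite directions in both Rb contrasts, 52 were higher and 99 lower in Rb than WT, and the 14 enteroendocrine genes were among the 99. A further 8 of the 38 were gained with no called fall. The mean level of the list was 7.14 to 7.61 in WT, 6.49 to 6.61 in Rb, 6.92 to 7.47 in TKO and 8.15 to 8.57 in QKO, so Rb was below and QKO above all other arrays.

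Several hormone genes fell in Rb minus WT and rose in QKO minus TKO. Cck, the gene of cholecystokinin, read 8.86, 9.24 and 9.76 in WT, 8.03, 7.75 and 7.34 in Rb, 8.89, 8.35 and 8.85 in TKO and 11.34, 10.83 and 11.52 in QKO. It fell by 1.58 ± 0.26 in Rb minus WT (adjusted p = 0.0012) and rose by 2.54 ± 0.26 in QKO minus TKO (adjusted p = 0.00033), with an interaction of 4.11 ± 0.36 (adjusted p = 2e-05). Gip, the gene of the glucose-dependent insulinotropic peptide, had an interaction of 3.33 ± 0.38, and Ghrl, the gene of ghrelin, one of 3.94 ± 0.53. Pyy, the gene of peptide YY, read 7.58, 7.78 and 8.13 in WT, 6.77, 6.94 and 7.05 in Rb, 7.78, 7.80 and 7.38 in TKO and 8.85, 9.78 and 10.19 in QKO (interaction 2.87 ± 0.39). Neurotensin, encoded by Nts, and somatostatin, encoded by Sst, fell by 1.96 and 1.79 in Rb minus WT and rose by 1.41 and 2.10 in QKO minus TKO. Gcg, the gene of proglucagon, fell by 1.27 in Rb minus WT (adjusted p = 0.029), and its QKO minus TKO of -0.27 was not called (adjusted p = 0.71).

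Other members of the list differed in which calls they passed. Tph1, the rate-limiting enzyme of serotonin synthesis in the gut, read 6.95, 7.74 and 8.15 in WT, 6.43, 6.07 and 6.15 in Rb, 7.65, 6.58 and 6.60 in TKO and 10.34, 9.74 and 10.49 in QKO. The groups did not overlap in either contrast, and the rise in QKO over TKO was 9.5-fold (3.25 ± 0.33, adjusted p = 0.00033). Scg2, a granin, fell by 1.26 ± 0.26 in Rb minus WT and rose by 2.57 ± 0.26 in QKO minus TKO. The chromogranin genes Chga and Chgb rose by 1.63 and 1.85 in QKO minus TKO, and their Rb minus WT of -0.76 and -0.91 was not called. Ambp, which encodes a secreted precursor protein and was on the list as a marker, read 6.60, 7.29 and 7.97 in WT, 5.56, 5.61 and 4.97 in Rb, 7.37, 5.93 and 5.84 in TKO and 9.91, 9.06 and 9.46 in QKO. Of 21 transcription factors of the lineage 4 had a higher interaction. Neurod1 rose by 2.18 ± 0.27 in QKO minus TKO (interaction 3.03 ± 0.38), and Pdx1 and Isl1 rose by 2.69 ± 0.36 and 1.28 ± 0.27.

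The 99 genes with the same pattern also included Serpina1c, a secreted protease inhibitor outside the lists, with an interaction of 5.33 ± 0.80. On the retinoid list Rbp4, the plasma retinol carrier, had one of 3.92 ± 0.43. Lists of T cells (Cd3d and Cd160), stroma (Fbln2) and pancreatic enzymes (Cela1) held such genes as well. Rbp4 read 6.29, 6.54 and 7.31 in WT, 5.52, 5.42 and 5.38 in Rb, 6.93, 6.24 and 6.21 in TKO and 9.77, 8.77 and 8.77 in QKO. The interaction calls of the hormone and granule list numbered 23 to 28 in all settings. The rise in QKO over TKO held for 15 to 23, and the fall in Rb for 9 to 22 (11 without WT array 2, 9 without WT array 3, 10 without Rb array 3) except with sex as a covariate, where 5 remained.

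**Figure D3:**
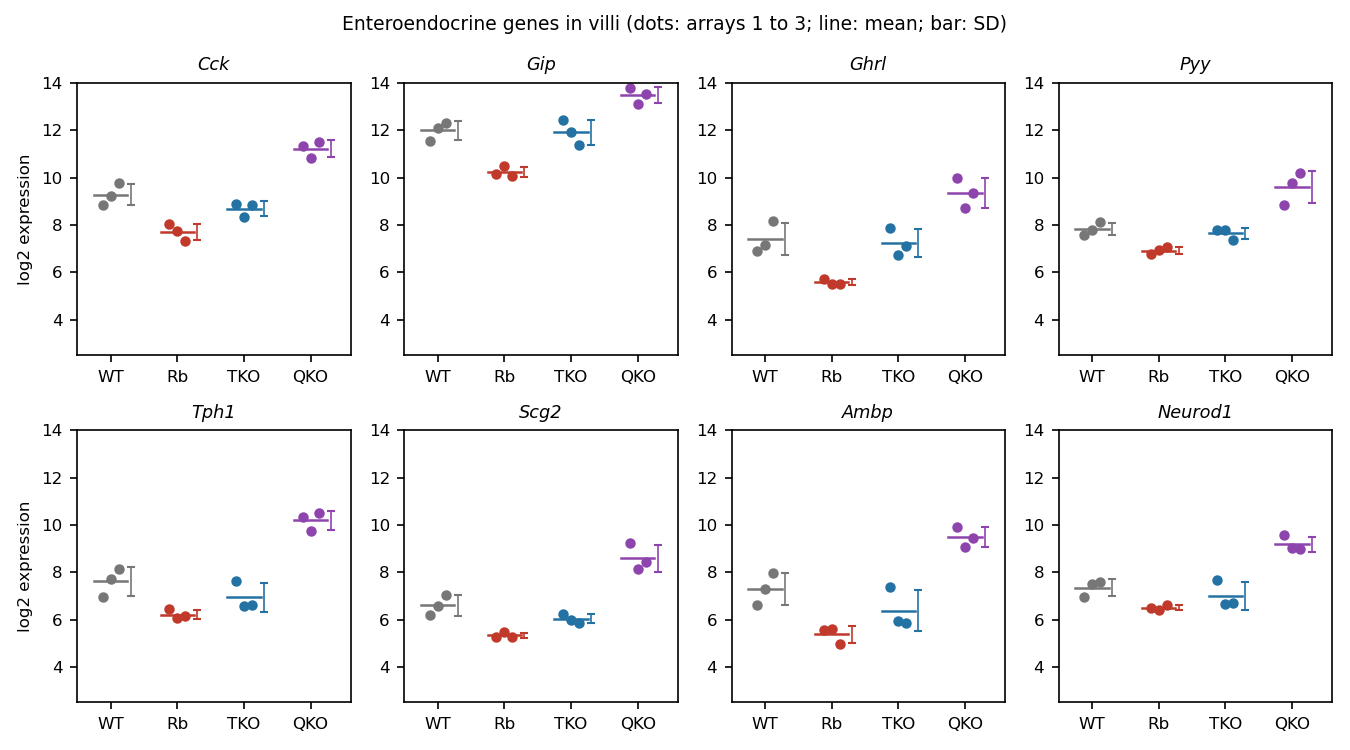
Log2 expression (y axis) of 8 enteroendocrine genes on the villus arrays of each genotype (x axis), as dots with the mean as a line and the SD as a bar. In each panel the 3 Rb arrays lie below the 3 WT arrays and the 3 QKO arrays lie above the 3 TKO arrays.

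Few changes were kept. Rgs13, a regulator of G protein signalling that is also a tuft cell marker, read 6.32, 6.59 and 7.00 in WT, 9.04, 8.48 and 8.79 in Rb, 6.16, 3.98 and 4.67 in TKO and 7.11, 7.07 and 6.46 in QKO. It rose by 2.14 ± 0.42 in Rb minus WT (adjusted p = 0.0042) and by 1.94 ± 0.42 in QKO minus TKO (adjusted p = 0.02). Dpysl2, a microtubule-binding protein, read 8.65, 8.99 and 9.15 in WT, 10.46, 10.11 and 10.11 in Rb, 8.10, 8.41 and 8.11 in TKO and 9.65, 9.67 and 9.73 in QKO, which gave rises of 1.30 ± 0.15 and 1.48 ± 0.15. Plek, Capg, Tnfaip8 and Rnf152 rose by 1.15 to 1.55 in QKO minus TKO. Of 23 tuft cell markers 3 were kept (Rgs13, Siglecf and Fyb), and 7 were higher in QKO than TKO, but 1 without TKO array 2, 2 without TKO array 3 and 3 without QKO array 3.

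Among kept falls, Slc5a4b, a member of the sodium-glucose transporter family, read 11.54, 11.74 and 11.63 in WT, 10.03, 10.76 and 10.74 in Rb, 11.64, 11.32 and 11.90 in TKO and 10.25, 9.78 and 9.71 in QKO. It fell by 1.13 ± 0.21 and by 1.71 ± 0.21. Edn2, the gene of endothelin-2, fell by 0.93 ± 0.18 and by 1.29 ± 0.18, and Rec8, a meiotic cohesin subunit, by 1.93 ± 0.25 and by 1.45 ± 0.25. Of the 16 kept falls 3 lie on chromosome 14 (Rec8, Rnase1 and Rb1, the deleted gene), which carries 3.52% of all genes. Of the 175 genes lower in QKO than TKO 13 do (7.43%), with Rb1 again among them. Of all 1018 genes called in QKO minus TKO 48 do (4.72%), and of all 2622 called in Rb minus WT 94 do (3.59%). Under other settings the class held 31 to 80 genes, 19 without TKO array 2 and 90 without QKO array 1. Its rises were 75.8% of it, but 32.5% with arrays centred on their medians.

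Rises made up 90.5% of gained changes, 73.5% after median centring and 74.2% after quantile normalization. Genes of calcium, iron and vitamin uptake stood out among absorptive lists: of 25 measured 8 were higher in QKO than TKO and 6 had a higher interaction (11 without QKO array 1), and 5 were gained. S100g, the calcium-binding protein calbindin-D9k, read 8.18, 8.71 and 8.39 in WT, 10.38, 9.09 and 9.04 in Rb, 9.26, 8.24 and 6.88 in TKO and 11.996, 12.20 and 13.37 in QKO. The rise in QKO over TKO was 4.39 ± 0.54 (adjusted p = 0.001), and Rb minus WT of 1.08 ± 0.54 was not called (adjusted p = 0.21). Trpv6, the apical calcium channel, read 4.75 to 4.98 on all 9 arrays of WT, Rb and TKO and 8.15, 8.30 and 10.83 in QKO (interaction 4.17 ± 0.71).

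Genes of iron uptake and export were gained as well. Cybrd1, the apical ferric reductase, read 5.21, 5.59 and 5.13 in WT, 5.26, 5.35 and 4.94 in Rb, 5.71, 5.25 and 5.30 in TKO and 8.84, 8.20 and 8.52 in QKO, with an interaction of 3.23 ± 0.28 (adjusted p = 1.8e-05). Slc40a1, the iron exporter ferroportin, rose by 3.35 ± 0.38 in QKO minus TKO. Slc30a10, a manganese exporter, rose by 2.15 in QKO minus TKO and was -0.12 in Rb minus WT. Slc46a1, the proton-coupled folate transporter, was reversed, with a fall of 1.93 ± 0.33 and a rise of 1.29 ± 0.33. Tfrc, the transferrin receptor, went the other way, with a rise of 1.11 ± 0.22 in Rb minus WT and an interaction of -1.87 ± 0.32. Several of these genes are known for high expression in the duodenum, and whether the QKO arrays held more duodenum was not tested: the ileal marker Fabp6 read 4.37 to 4.90 in QKO and 4.76 to 9.27 on the other arrays, and its interaction of -3.27 was not called (adjusted p = 0.12).

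Anxa10, an annexin known from gastric epithelium, was the single rise classed as larger without E2f1 to E2f3. It read 3.40, 3.74 and 3.42 in WT, 5.08, 4.01 and 4.64 in Rb, 4.90, 3.88 and 4.05 in TKO and 9.13, 9.33 and 9.99 in QKO. The rise was 1.06 ± 0.31 in Rb minus WT and 5.21 ± 0.31 in QKO minus TKO (36.9-fold, adjusted p = 3.7e-06). Akp3, an intestinal alkaline phosphatase, rose by 3.64 ± 0.44 in QKO minus TKO.

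Some markers of other cells in the villus were also higher in QKO than TKO. Endothelial markers were not (0 of 20 higher, 1 lower), nor were MHC class II (0 of 13) or red cell genes (0 of 7), and B and plasma cell markers were for 2 of 18. At an unadjusted p under 0.05, 1 endothelial, 0 MHC class II, 1 red cell and 2 B and plasma cell genes were higher by limma. Of 28 intraepithelial T cell markers 13 were higher in QKO than TKO and 13 had a higher interaction, and 10 were gained (medians 0.93 and 1.19). The first count was 4 without TKO array 2, 7 without TKO array 1 and 8 without QKO array 3, and the second was 8 without TKO array 2. Cd3g, of the T cell receptor complex, read 8.55, 9.23 and 8.93 in WT, 8.66, 8.37 and 8.48 in Rb, 7.99, 7.89 and 8.91 in TKO and 9.95, 9.49 and 10.30 in QKO. The QKO arrays lay above all others. The list mean was 7.12 to 7.34 in WT, 6.79 to 7.05 in Rb, 6.86 to 7.64 in TKO and 7.69 to 8.49 in QKO, with QKO array 3 the highest.

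Of 27 macrophage and granulocyte markers 6 were higher in QKO than TKO and 7 had a higher interaction (13 and 13 without QKO array 1), among them the signalling adaptors Tyrobp (2.33 ± 0.34) and Fcer1g (2.56 ± 0.39), which other immune cells also express. Of 34 stroma and collagen genes 9 were higher in QKO than TKO and 10 had a higher interaction. Col3a1, the gene of type III collagen, read 7.44, 7.07 and 7.07 in WT, 5.58, 6.18 and 8.40 in Rb, 6.54, 7.10 and 5.57 in TKO and 7.93, 11.31 and 11.39 in QKO. QKO array 1 lay far below the other two, and the interaction of 4.28 ± 1.21 was lost in 12 of 23 other settings. Dcn, the proteoglycan decorin, had an interaction of 4.0 ± 0.59. The list means in QKO were 5.49, 6.04 and 6.53 for macrophages and 5.65, 6.49 and 6.92 for stroma, against 5.06 to 5.70 and 5.37 to 5.76 on the other 9 arrays. The stroma counts were 17 and 20 without QKO array 1. Without any other single array they were at least 3 in QKO minus TKO, lowest without TKO array 2, and at least 5 in the interaction, lowest without WT array 1 or Rb array 2. The list mean of the enteroendocrine genes in QKO was 8.57, 8.15 and 8.30. The part of immune and stromal cells in this and the other QKO differences was not tested.

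**Figure D4:**
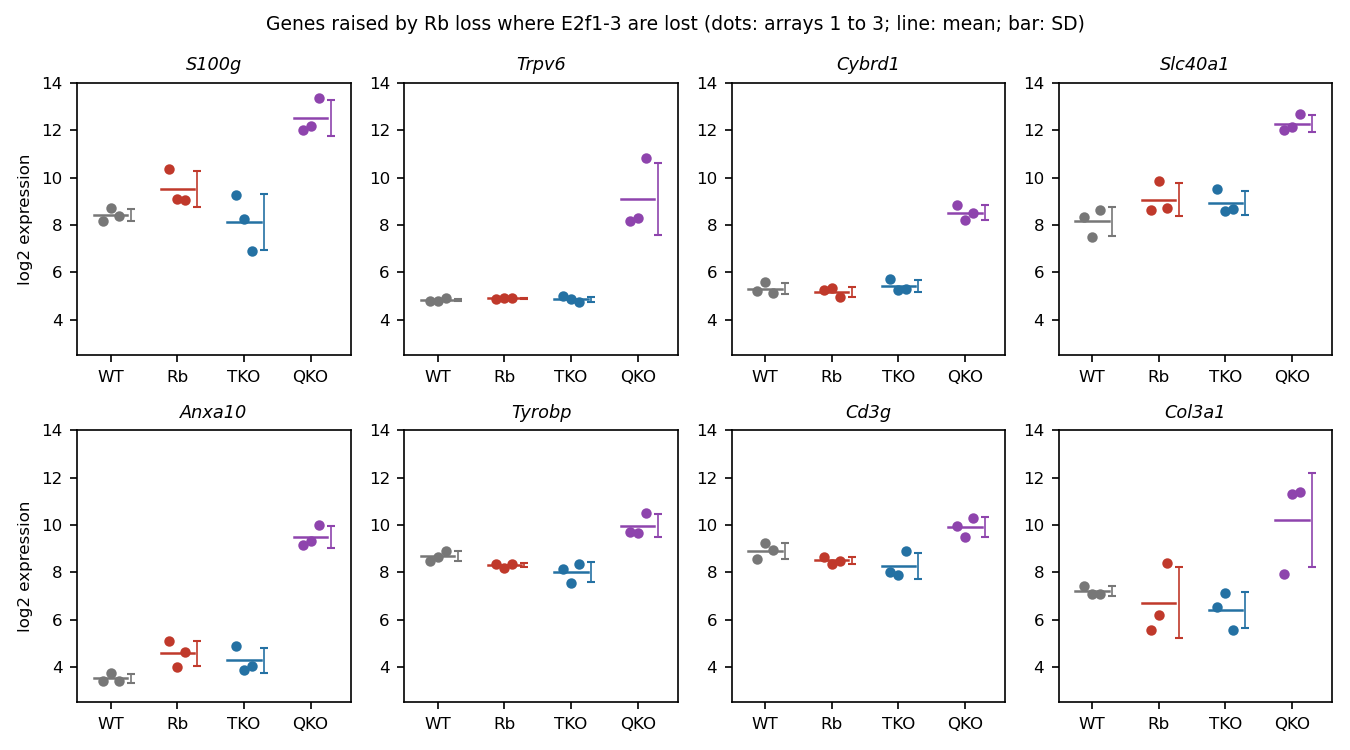
Log2 expression (y axis) of 8 genes on the villus arrays of each genotype (x axis), as dots with the mean as a line and the SD as a bar. S100g, Trpv6, Cybrd1, Slc40a1 and Anxa10 lie above all other groups on every QKO array, whereas Col3a1 is high on 2 of the 3 QKO arrays.

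In some gained genes TKO or a single array stood apart. Ear3, an eosinophil-associated ribonuclease of a family of near-identical genes, read 8.87, 9.05 and 8.59 in WT, 8.71, 9.41 and 8.54 in Rb, 3.26, 3.37 and 3.15 in TKO and 7.28, 8.03 and 7.46 in QKO. TKO alone stood apart, so the rise of 4.33 ± 0.23 in QKO minus TKO is from a level far below WT. Ang, the gene of angiogenin on chromosome 14, read 9.19 to 9.72 in TKO and 5.80 to 7.25 on the other 9 arrays. St3gal4, a sialyltransferase gene, read 12.50, 5.78 and 12.56 in WT, 13.07 to 13.67 in Rb, 12.33 to 12.84 in TKO and 4.71, 5.22 and 5.65 in QKO. WT array 2 stood with the QKO arrays, and the interaction was -10.49 ± 1.83 (adjusted p = 0.0024). Car4, a membrane carbonic anhydrase, fell by 2.48 ± 0.31 in QKO minus TKO, with -0.33 ± 0.31 in Rb minus WT.

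By limma 4 lists held no called interaction. Of 44 interferon-stimulated genes 5 had a higher interaction at an unadjusted p under 0.05, and of 24 tight junction genes 1 did. Of 13 MHC class II genes and 7 red cell genes none had one at that level. MHC class II levels varied within groups, with list means of 6.86 to 7.77 in WT, 6.40 to 7.78 in Rb, 7.03 to 8.33 in TKO and 6.54 to 7.94 in QKO. Of 61 oxidative phosphorylation genes 3 had a higher interaction, 0 without WT array 3, Rb array 3 or TKO array 2, 1 without TKO array 3 or QKO array 2, and 10 at an unadjusted p under 0.05. Of 43 cytosolic ribosomal protein genes 3 had a lower interaction, and 15 did at an unadjusted p under 0.05. That count rested on single arrays: it was 29 without QKO array 1, 8 without TKO array 3 and 1 without WT array 3, Rb array 3 or TKO array 2, and it was 15 with array weights.

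Calls in several further lists were few or ran both ways. Interactions were called higher and lower for 5 and 2 of 34 ion, water and guanylin genes, 6 and 3 of 31 glycolysis genes, 4 and 4 of 55 p53 and apoptosis genes, 3 and 4 of 29 stem cell markers and 2 and 8 of 49 cilium and centrosome genes. Of 29 fat absorption genes 5 had a higher and 0 a lower interaction. The same held for 3 of 44 neuronal genes, 3 of 15 pancreatic enzymes and 2 of 29 goblet cell markers.

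**Figure D5:**
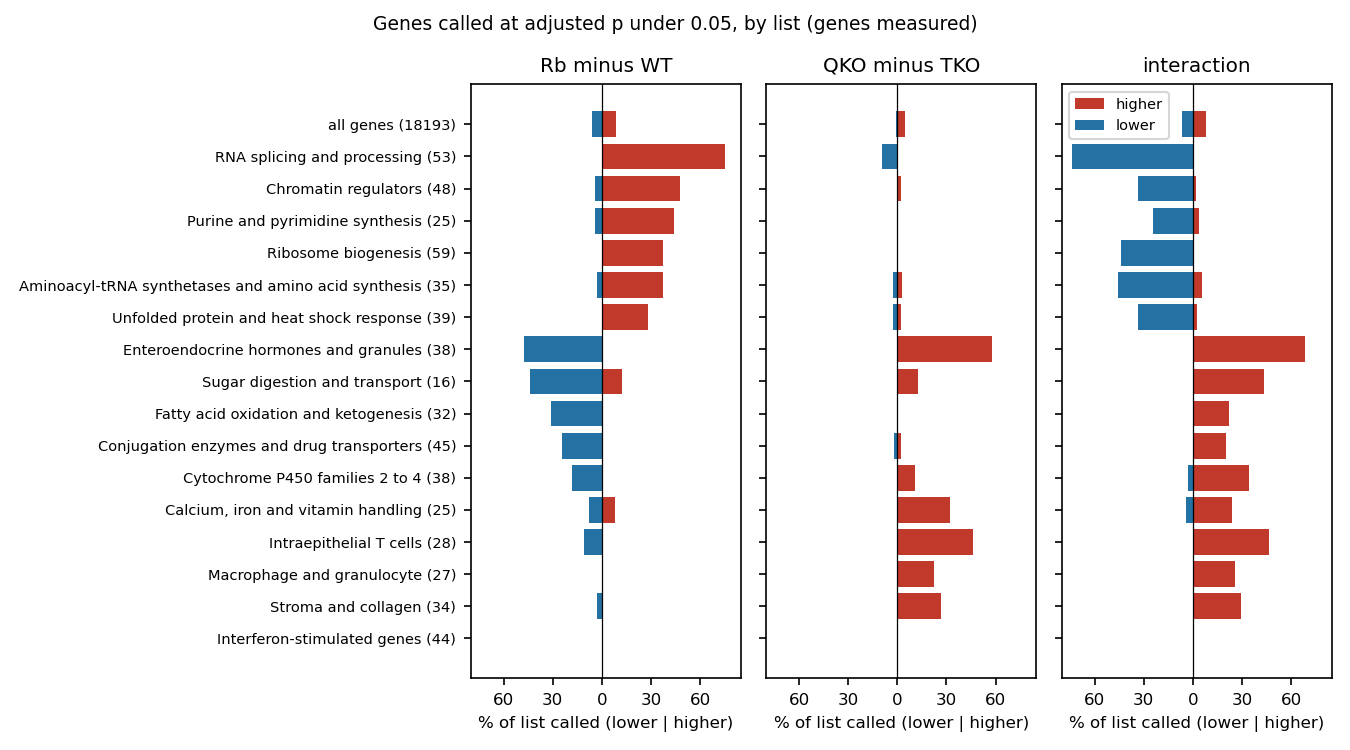
Share of each list called at an adjusted p under 0.05 (x axis, per cent, lower to the left and higher to the right) in Rb minus WT, QKO minus TKO and the interaction, with the number of genes measured in brackets. Splicing, chromatin and biosynthesis lists rise in Rb minus WT and not in QKO minus TKO, enteroendocrine genes fall in the first and rise in the second, and calcium and iron, T cell, macrophage and stroma lists rise in the second.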

How the data were processed

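RNA of the villi was measured on Affymetrix mouse arrays, per the labels' protocols from Trizol extracts, with biotin-labelled cRNA made from 3 ug of total RNA. The authors deposited log2 expression by probe set, from 2.29 to 14.9, and these values were used unchanged. No source at hand states the summary or normalization behind them. Per the platform annotation, 34945 of 45101 probe sets named 1 gene, 932 several and 9160 none, and 64 were controls. For each of 18193 genes the brightest probe set by mean over the 24 arrays was taken, so others of that gene may differ.

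Tests used limma 3.58.1 under R 4.3.3 (lmFit, eBayes with its trend option, 8 residual and 4.52 prior degrees of freedom, two-sided, Benjamini-Hochberg over 18193 genes). The 12 crypt arrays were left out because an earlier analysis found 2 of them against their labels. No dim gene was removed. The fit was checked on simulated data. The members, classes, 51 gene lists and naming rule were chosen with earlier results of these data known. The rule took, outside the cell cycle lists, the 6 genes per class with the largest leading difference, no overlap between groups and a group mean above 6.36, the median of all villus values. From lists with at least 3 interaction calls it took the 4 with the smallest p, from other lists up to 3, and always Rb1 and E2f1 to E2f8. Further members of a list named in the text were chosen after their values were seen. One listed symbol, Mln, matched another gene by an old synonym and was left out.

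Replicates correlated at 0.978 to 0.995 within groups and 0 of 12 pairs were identical. Deviations of arrays with the same number correlated at -0.24 to 0.38 between genotypes, with 2 of 18 pairs over 0.1. Those 2 lay between TKO and QKO, which gave 0.379, 0.033 and 0.275 for arrays 1, 2 and 3. TKO and QKO arrays with different numbers gave -0.375 to 0.109. Whether the numbers pair TKO and QKO arrays is thus not settled, and the main fit did not pair them. The number of arrays limits the precision. Alternatives were all 24 arrays, quantile normalization, median centring, no intensity trend, dim genes left out, averaged probe sets by gene, all probe sets tested singly, array weights, a replicate block, sex as a covariate, leaving out each array, and, added after seeing the data, median centring with QKO array 3 left out. Figures were drawn with matplotlib 3.10.9.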

Additional observations from a re-analysis of the deposited data

Results flagged for a closer look

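The effect of Rb loss differed between the presence and the absence of E2f1 to E2f3 for 2704 genes by the interaction test of limma. Of these, 151 were called in opposite directions in Rb minus WT and QKO minus TKO: 52 were higher and then lower, and 99 were lower and then higher. Among the genes named for the largest differences, 6 were of this kind. The interaction was 5.33 for Serpina1c, 5.01 for Ambp, 4.65 for Tph1, 4.11 for Cck and 3.94 for Ghrl, all lower in Rb than WT and higher in QKO than TKO. It was -3.57 for Eno3, which ran the other way. No outlier test was run on the groups of 3 arrays. The interaction calls of these 6 genes held in all 23 other settings, which include leaving out each array. That count covers the interaction only.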

How the results depend on the processing

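Several counts moved by more than 1.5 times. Testing every probe set gave 4321 interaction calls against 2704, 4145 calls in Rb minus WT against 2622 and 2649 lost or reversed changes against 1659. These counts include several probe sets per gene. Array weights gave 4726 calls in Rb minus WT and 2569 lost or reversed changes. Sex as a covariate gave 1437 calls in Rb minus WT, 650 in QKO minus TKO against 1018 and 31 kept changes against 66. Median centring with QKO array 3 left out gave 617 calls in QKO minus TKO. The causes were not tested. With 1 array left out, interaction calls numbered 1845 (without Rb array 3) to 3743 (without QKO array 1), calls in Rb minus WT 1589 (without Rb array 3) to 3255 (without QKO array 3), and calls in QKO minus TKO 299 (without TKO array 2) to 1750 (without QKO array 1). Lost or reversed changes then numbered 1086 (without Rb array 3) to 2063 and kept changes 19 (without TKO array 2) to 90 (both highest without QKO array 1). Kept changes numbered 19 to 42 in 10 of the 12 such fits. The replicate block gave 2655 interaction calls, 2496 and 1002 calls in the Rb contrasts, 1615 lost or reversed and 59 kept changes. Quantile normalization gave a higher share of 46.4% for the interaction, 58.7% for QKO minus TKO and 41.8% for kept changes, and sex as a covariate 72.8% for Rb minus WT against 59%. No interaction of a named gene changed sign with a call. It lost its call in 89 of 2140 cases under other settings and in 205 of 2364 with 1 array left out. These totals include named genes with no called interaction, which could not lose one. Most called genes were named for a small p or a large difference, so the shares understate how often calls are lost. The 12 arrays limit the precision, and dim probe sets understate changes.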
